A study of Mus musculus with 12 samples.

Results

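The Egr, Klf and other immediate-early genes were examined for RNA polymerase II binding and histone acetylation in *Cx3cr1*-deficient microglia. They were 10 genes taken by name, *Egr1*, *Egr2*, *Egr3*, *Klf2*, *Klf6*, *Nr4a1*, *Ier2*, *Ier5*, *Btg2* and *Dusp1*, out of 17538 genes with a peak of either mark. A peak belonged to a gene when the deposited annotation named that gene as the one with the nearest transcription start site (TSS). This gave 39 of 26706 peaks of Rpb2, a subunit of RNA polymerase II, over 9 of the 10 genes, since *Egr3* had no Rpb2 peak. For H3K27Ac, the acetylated histone that marks active promoters and enhancers, it gave 59 of 55862 peaks over all 10 genes.

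Both marks were mapped by ChIP-seq, which sequences the DNA that an antibody pulls down together with its protein target. Microglia were sorted from the brains of 2-mo-old C57BL/6J mice, either WT littermates or Cx3cr1-deficient (KO) mice, in which the gene for eGFP replaces both copies of *Cx3cr1* (eGFP/eGFP). The allele is present in every cell of the animal, so genotype is not confined to microglia. Cells were stained and sorted as CD11b+CD45lo. Each sample was a pool of 3 mice of one sex, 1 labelled female and 1 male in each genotype. Comparisons thus set 2 pools against 2 for each mark.

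Immediate-early genes are switched on within minutes of a signal by transcription factors that are already in the cell, chiefly SRF with its ternary complex partners at CArG boxes and CREB at cAMP response elements (CREs). Many of their products are themselves transcription factors, such as the zinc finger proteins of the Egr and Klf families. In microglia, they are known to respond to cell isolation and to inflammatory stimuli. Here, cells were kept cold during dissociation and staining, with a Percoll centrifugation at room temperature in between. Cells were fixed with paraformaldehyde, also at room temperature, before sorting.

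Total reads ran from 11662185 to 44332626 in the Rpb2 libraries and from 10395804 to 21134403 in the H3K27Ac libraries. *Cx3cr1* itself, disrupted by the inserted eGFP gene while its other sequence remains, had summed Rpb2 of 2759 and 2351 CPM (reads scaled to 1000000 in the peaks of all genes) in WT and 2124 and 1893 CPM in KO (log2 fold change −0.35, SE 0.08, adjusted p = 0.121), so its reads do not check the genotype labels sharply. A pair of libraries stood apart. The H3K27Ac library labelled WT female had 15.9% of its reads in peaks, against 61.1% to 65.3% in the other 3 libraries. The Rpb2 library labelled WT female held 136 reads at Y-linked genes, against 214 and 266 in the male pools and 0 in the KO female, so its sex label is doubtful while its genotype label was kept. All 10 microglia markers examined had peaks of both marks. Their summed Rpb2 ran from 9527 to 9674 CPM in WT and from 9791 to 9981 CPM in KO. Of the markers of other cells, 0 of 7 neuronal, 0 of 5 astrocyte and 0 of 8 other leukocyte genes had an Rpb2 peak, while 2 of 5 oligodendrocyte genes (128 to 163 CPM summed) and 2 of 4 endothelial genes (50.9 to 86.2 CPM) did. For H3K27Ac, 4 of 7 neuronal genes summed to 61.3 CPM in the library labelled WT female and to 17.8 to 26.4 CPM in the others, 3 of 5 astrocyte genes to 19.7 CPM against 0 to 0.648 CPM, and the microglia markers to 3852 CPM against 5567 to 6857 CPM. In the library labelled WT female, 4 of 5 oligodendrocyte genes summed to 309 CPM of H3K27Ac, against 340 to 380 CPM in the others. The 4 endothelial genes summed to 241 CPM against 284 to 300 CPM. Sums of 6 of 8 other leukocyte genes were 106 CPM against 89.9 to 158 CPM. The part of other cells in the results was not tested. In such bulk pools, fewer cells carrying a mark and less of it per cell cannot be told apart.

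In mm10, *Egr2* lies at chr10:67534469-67542188, *Klf6* at chr13:5861489-5870393 and *Nr4a1* at chr15:101253902-101274795 on the plus strand. *Ier2* lies at chr8:84661331-84662852, *Ier5* at chr1:155096367-155099636, *Btg2* at chr1:134074865-134079155 and *Dusp1* at chr17:26505591-26508472 on the minus strand. Where a member had a promoter peak of Rpb2, its WT level ranged from among the lowest to among the highest of the called promoter peaks. Promoters without a called peak, such as that of *Egr3*, were not ranked. A promoter peak was the strongest peak whose centre lay within 1000 bp of the TSS, and its level was expressed per length, as reads per kb and per 1000000 total reads. In WT pools, *Btg2*, which encodes an antiproliferative protein that promotes mRNA deadenylation, had 252 ± 47.3 (SD, n = 2) and stood above 99.8% of the promoter peaks of all genes. The promoters of *Klf6*, at 172 ± 27.9 (SD, n = 2), and of *Ier5*, at 167 ± 3.15 (SD, n = 2), each stood above 99.4% of them. The *Klf6* pools (153 and 192) spanned those of *Ier5* (165.1 and 169.6), so this pair did not differ beyond its spread. *Ier2* followed with 105 ± 5.74 (SD, n = 2), *Klf2* with 63.3 ± 9.81 (SD, n = 2) and *Dusp1* with 47.8 ± 4.56 (SD, n = 2). The 3 lowest were *Egr1* with 9.49 ± 3.04 (SD, n = 2), *Nr4a1* with 5.81 ± 1.71 (SD, n = 2) and *Egr2* with 3.66 ± 0.559 (SD, n = 2), above 17.8%, 7.33% and 3.03% of promoter peaks. The pools of the other neighbours in this order did not overlap. In several pairs, however, the nearest pools were apart by less than the SD of the higher gene. These were *Btg2* (218 and 285) above *Klf6*, and *Klf2* (56.3 and 70.2) above *Dusp1* (51.0 and 44.5). So were *Egr1* (7.34 and 11.6) above *Nr4a1* (4.60 and 7.02), and *Nr4a1* above *Egr2* (3.26 and 4.05). The promoter peaks of *Egr1*, *Nr4a1* and *Egr2* came from the KO peak list alone. In KO pools they stood above 52.8%, 30.6% and 17.5% of promoter peaks. Those of *Egr1*, *Egr2* and *Klf6* did not overlap the TSS.

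None of the members passed the test between genotypes. Of 39 member peaks of Rpb2, 0 passed edgeR's quasi-likelihood test at an adjusted p of 0.05, where 0.00749% of all peaks did, and 5 had an unadjusted p under 0.05, which is 12.8% against 12.2% of all peaks. When the peaks of a gene were summed, 0 of 9 members were called, as were 0% of all genes, and 1 of 9 had an unadjusted p under 0.05, against 10.8% of all genes. Both KO pools lay above both WT pools at 10 member peaks (25.6%, against 25.7% of all peaks) and below them at 5 (12.8%, against 21.7% of all). For the sums, they lay above at 3 of 9 genes, *Klf2*, *Egr2* and *Ier5*, against 22.4% of all genes, and below at 1 of 9, *Nr4a1*, against 19.7%. The median log2 fold change (log2FC, KO over WT) was 0.13 over the 9 sums and 0.02 over all genes.

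No member passed the test for H3K27Ac either. Of 59 member peaks, 0 had an adjusted p under 0.05, against 0.0233% of all peaks, and 3 had an unadjusted p under 0.05, against 4.95% of all. Of the 10 sums, 0 were called, as were 0% of all genes, and 1, *Egr2*, had an unadjusted p under 0.05, against 6.48%. Both KO pools lay above both WT pools at 11 peaks (18.6%, against 14.3% of all) and below them at 4 (6.78%, against 13.0%). For the sums, the KO pools lay above at 3 of 10 genes, *Egr2*, *Klf2* and *Nr4a1*, against 13.4% of all genes, and below at 0 of 10, against 14.2%. The median log2 fold change was 0.21 over the 10 sums and −0.11 over all genes. In the fit on genes with at least 10 reads in every sample, the median over all such genes was −0.0089. Without the WT male library, which leaves the weakly enriched library as the only WT sample, 7 of 10 sums had an adjusted p under 0.05, against 22.5% of all genes, and so did 8 of 59 peaks, against 14.8% of all. Without the library labelled WT female, 0 sums and 0 peaks of the members did, against 3.65% and 1.53% of all. For Rpb2, 1 of 9 sums and 4 of 39 peaks were called without the WT male, against 1.52% and 7.35% of all, and 0 sums and 2 peaks without the library labelled WT female, against 2.59% and 8.28%. A lone sample was assumed in these fits to vary like the other genotype. DESeq2 called 1 of the 39 Rpb2 member peaks, against 3.83% of all, and 0 of the Rpb2 sums, against 0.274%. For H3K27Ac it called 0 member peaks, against 0.642% of the peaks it gave an adjusted p, and 0 sums, against 1.42%.

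**Figure D1:**
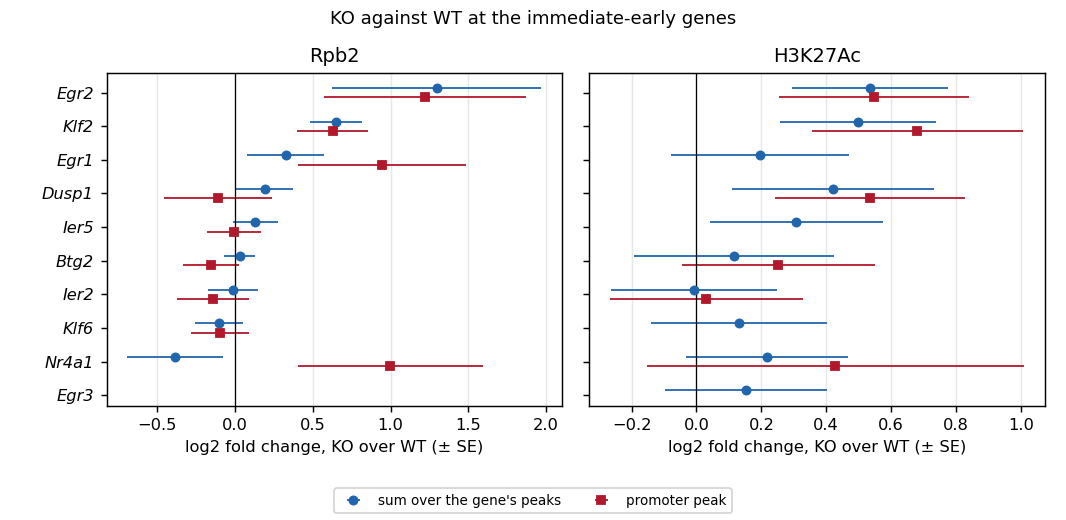
Log2 fold change of KO over WT, with its SE from edgeR's fit, for each immediate-early gene, with Rpb2 on the left and H3K27Ac on the right (x axes differ in range). Blue circles are the sum over the gene's peaks and red squares the promoter peak. The sums of *Egr2* and *Klf2* lie highest for both marks, at 1.30 and 0.65 for Rpb2, and none of the values passed the adjusted threshold.

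*Klf2* had the lowest adjusted p among the members. It encodes a zinc finger transcription factor known for restraining inflammatory activation of myeloid cells and endothelium. Over its 3 Rpb2 peaks, the library labelled WT female had 219.7 CPM and the WT male 254 CPM, against 349 CPM in the KO female and 395 CPM in the KO male. Both KO pools were above both WT pools, and the pools of a genotype were closer to each other than to the other genotype. The means were 237 ± 24.5 CPM in WT and 372 ± 32.6 CPM in KO (SD, n = 2 each), which is 1.57-fold (log2FC 0.65, SE 0.17, adjusted p = 0.158). By unadjusted p, the gene ranked 60 of 10206. In pools labelled female the log2 ratio was 0.67 and in the male pools 0.63. Without the library labelled WT female, the log2FC was 0.53, and without the WT male 0.76 with an adjusted p of 0.0386. Without each pool other than the WT male, the adjusted p ran from 0.170 to 0.916, and it ran from 0.0632 to 0.159 over the alternatives that kept all pools.

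At all 3 *Klf2* peaks of Rpb2, each KO pool was above each WT pool. The gene lies at chr8:72319062-72321654 on the plus strand of mm10. Its promoter peak (chr8:72318946-72319188) covers the TSS and held 159 and 232 reads in the WT pools, against 1078 and 594 in the KO pools. These were 124 and 153 CPM in WT and 196 and 232 CPM in KO, where the CPM of single peaks is scaled to 1000000 reads in all peaks (log2FC 0.63, SE 0.23, adjusted p = 0.306). Per length, this promoter stood above 91.7% of promoter peaks in WT and above 97.9% in KO. A distal peak centred at −23103 bp, in intergenic DNA under an H3K27Ac peak, had 98.7 and 107 CPM in WT and 135 and 127 CPM in KO (log2FC 0.35, SE 0.25, adjusted p = 0.598). The third peak, centred at 48076 bp in an intron of *Eps15l1* (chr8:72366987-72367289), had only 2 and 5 reads in the WT pools, against 66 and 61 in the KO pools. The log2FC there was 2.83 (SE 0.95, adjusted p = 0.267), with loess offsets 1.59 and without the WT male 3.48 (adjusted p = 0.025), it was not under an H3K27Ac peak, and its assignment to *Klf2* rests on the distance rule alone. This peak came from the KO peak list alone, where the median log2 fold change over all 14148 Rpb2 peaks was 0.51.

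The H3K27Ac at *Klf2* also lay higher in KO without passing the test. Over 8 peaks, the sum was 103 and 113 CPM in WT and 166 and 139 CPM in KO (log2FC 0.50, SE 0.24, adjusted p = 0.778). The means were 108 ± 6.86 CPM in WT and 152 ± 19.4 CPM in KO (SD, n = 2 each), with no overlap. At the peak over the promoter (chr8:72317183-72321734), the values were 23.5 and 27.2 CPM in WT and 51.6 and 29.8 CPM in KO, and without the KO female library the log2 fold change dropped from 0.68 to 0.23. At the upstream element (chr8:72294007-72297629, centred at −23244 bp), they were 28.8 and 53.2 CPM in WT and 63.2 and 68.3 CPM in KO (log2FC 0.67, SE 0.30, adjusted p = 0.811). Without the weakly enriched library labelled WT female, that difference was 0.30, and without the WT male it was 1.19 (adjusted p = 0.00013). The log2 fold change of the *Klf2* sum was 0.44 (adjusted p = 0.0966) without the library labelled WT female and 0.57 (adjusted p = 0.00287) without the WT male.

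**Figure D2:**
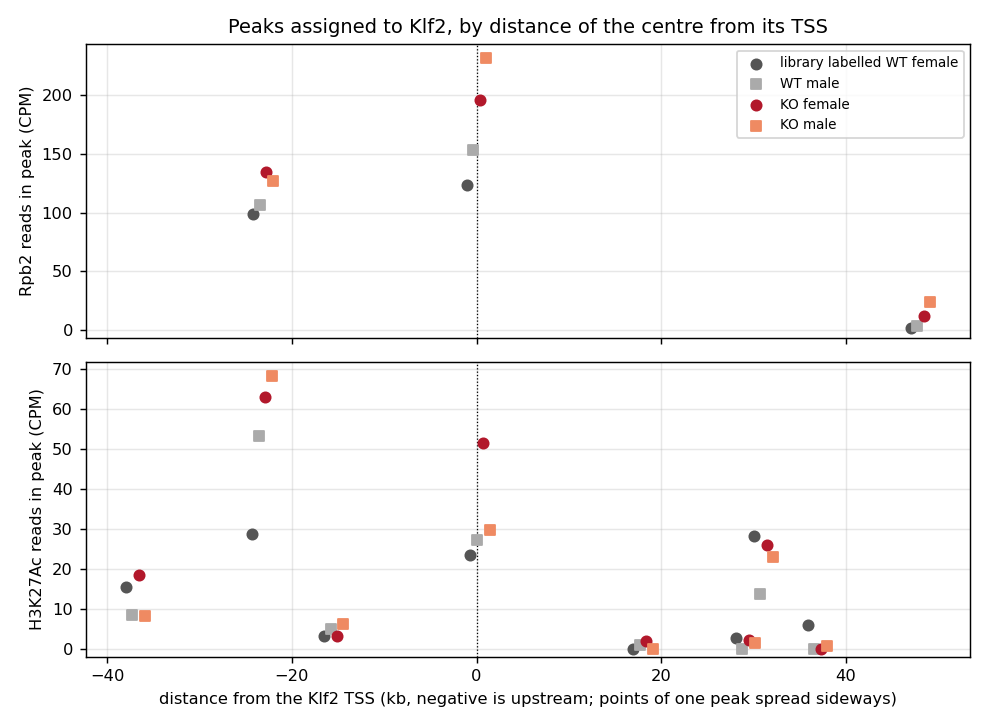
Reads in each *Klf2* peak (CPM, linear axis) for the 4 libraries against the distance of the peak centre from the TSS in kb, with Rpb2 above and H3K27Ac below and the points of a peak spread sideways. The 3 Rpb2 peaks, at the promoter, −23103 bp and 48076 bp, have both KO pools above both WT pools; among the H3K27Ac peaks, the promoter and the element at −23244 bp do too.

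The promoter and the upstream element of *Klf2* are printed because Rpb2 at both was higher in each KO pool than in each WT pool. Sequences are from RefSeq's GRCm38.p6, the build of mm10, and read 5′ to 3′ on the strand of the gene. Capitals mark the motifs searched on both strands, which were the CArG box, the full CRE TGACGTCA, its core TGACG outside a full CRE, the AP-1 site TGANTCA, the EGR elements GCGGGGGCG and GCGTGGGCG, and the TATA box TATAAA. In the 250 bases before the *Klf2* TSS (chr8:72318812-72319061), a CRE core lies at −241 and an EGR element at −199, counted from −1 as the last base before the TSS to the first base of the motif.
*Klf2* promoter: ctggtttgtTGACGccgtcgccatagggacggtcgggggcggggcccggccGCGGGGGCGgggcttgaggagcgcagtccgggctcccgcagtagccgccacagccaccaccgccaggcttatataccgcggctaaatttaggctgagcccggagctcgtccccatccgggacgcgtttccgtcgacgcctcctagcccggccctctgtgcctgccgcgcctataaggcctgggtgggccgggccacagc
*Klf2* upstream Rpb2 peak, chr8:72295839-72296080, plus strand: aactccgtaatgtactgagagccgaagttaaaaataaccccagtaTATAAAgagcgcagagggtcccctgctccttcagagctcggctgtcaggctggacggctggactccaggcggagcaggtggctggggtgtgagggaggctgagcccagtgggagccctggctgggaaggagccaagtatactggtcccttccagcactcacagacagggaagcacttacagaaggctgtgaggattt
Of all 32851 promoter windows of 300 bases in RefSeq (250 before the start and 50 after), 2.91% held the EGR element GCGGGGGCG and 19.5% a CRE core. In the 242 bases of the upstream peak, the only match was a TATAAA from base 46, which 7.87% of 26702 Rpb2 peak centres of the same length held.

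*Egr2* had the largest log2 fold change among the Rpb2 sums, at very low counts. It encodes a transcription factor known in myeloid cells and in Schwann cell myelination. Its single Rpb2 peak (chr10:67537093-67537382) counted 11 and 16 reads in the WT pools, against 130 and 54 in the KO pools. Scaled, these were 8.39 and 10.2 CPM in WT and 24.1 and 21.8 CPM in KO (log2FC 1.30, SE 0.67, adjusted p = 0.491). The KO pools were both above the WT pools, at a mean ratio of 2.46. The peak came from the KO list alone, and its log2 fold change ran from 1.15 to 1.45 when each pool was left out. H3K27Ac over 7 *Egr2* peaks was 60.5 and 64.0 CPM in WT and 78.6 and 102 CPM in KO (log2FC 0.54, SE 0.24, adjusted p = 0.714). At the peak over the TSS it was 56.5 and 50.5 CPM against 69.1 and 87.0 CPM (log2FC 0.55, SE 0.29, adjusted p = 0.811). Without the library labelled WT female, the H3K27Ac sum gave 0.50 (adjusted p = 0.190), and without the WT male, 0.58 (adjusted p = 0.0332).

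The *Egr2* Rpb2 peak was centred at −632 bp from the TSS used by the deposited annotation (67537869). RefSeq has other *Egr2* starts upstream of it. A CArG box, the SRF site found in 1.63% of all promoter windows, lies at −72 from the start at 67537566 and again at −72 from the start at 67537869. Both boxes, in capitals, lie downstream of the Rpb2 peak and within the H3K27Ac peak chr10:67535651-67539295, and are printed because no other member's window held one. No windows were available for *Egr1*, *Egr3* and *Ier2*, so their promoters were not searched.
*Egr2* CArG box, chr10:67537485-67537512, plus strand: ggatcttctCCTTTTTTGGaaagtctcg
*Egr2* CArG box, chr10:67537788-67537815, plus strand: ttcctcagtCCATATATGGgcagcgacg

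*Egr3*, a further member of the family, had H3K27Ac but no Rpb2 peak. Its 8 H3K27Ac peaks were all outside the gene, 3 of them in introns of the neighbouring *Pebp4*. The sum was 110 and 148 CPM in WT and 135 and 152 CPM in KO (log2FC 0.15, SE 0.25, adjusted p = 0.994). The nearest peak with reads in all libraries ended at 70077135, upstream of the gene's start at 70077317 on chromosome 14. It had 13.6 and 12.5 CPM in WT and 16.8 and 26.7 CPM in KO (log2FC 0.74, SE 0.42, adjusted p = 0.811).

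*Egr1*, the prototype of its family, differed between the pools of one genotype as much as between genotypes. Its gene lies on chromosome 18 at 34861207 to 34864956 on the plus strand. Summed over 4 peaks, Rpb2 was 163 and 203 CPM in WT and 159 and 304 CPM in KO (log2FC 0.32, SE 0.25, adjusted p = 0.679). The KO female lay below both WT pools and the KO male above both. The peak nearest the start was centred at 314 bp, in an exon, with 21.8 and 34.2 CPM in WT and 27.5 and 81.9 CPM in KO (log2FC 0.94, SE 0.54, adjusted p = 0.503). Without the KO male it was −0.03. Other Rpb2 peaks of *Egr1* lay upstream, centred at −5644 bp and −4860 bp, with log2 fold changes of −0.27 and 0.23 (SE 0.38 and 0.37). A single H3K27Ac peak from 34850285 to 34861763 covered all 4 Rpb2 peaks, and 99.2% of H3K27Ac peaks were narrower. It held 133 and 203 CPM in WT and 184 and 204 CPM in KO (log2FC 0.21, SE 0.31, adjusted p = 0.975), and −0.07 without the library labelled WT female, or 0.54 (adjusted p = 0.00326) without the WT male.

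*Klf6* and *Nr4a1* did not share the direction of *Klf2* in their Rpb2 sums. *Klf6*, a Klf factor induced in activated macrophages, had 382 and 513 CPM in WT and 424 and 409.8 CPM in KO (log2FC −0.10, SE 0.16, adjusted p = 0.857), with the KO pools between the WT pools. Its promoter peak gave −0.10 (SE 0.18). A weak intronic peak centred at 966 bp, from the WT list alone, had 48.2 and 73.1 CPM in WT and 19.6 and 30.4 CPM in KO (log2FC −1.29, SE 0.44, adjusted p = 0.277). It gave −1.57 (adjusted p = 0.0400) without the library labelled WT female and −0.95 (adjusted p = 0.350) without the WT male. H3K27Ac over *Klf6* was 186 and 250.1 CPM in WT and 237 and 241 CPM in KO (log2FC 0.13, SE 0.27, adjusted p = 0.994), with −0.064 without the library labelled WT female and 0.36 (adjusted p = 0.0159) without the WT male.

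*Nr4a1* encodes the orphan nuclear receptor Nur77, and its promoter and upstream Rpb2 peaks differed in opposite directions. Its distances and promoter peak refer to the start used by the deposited annotation (101266846). The RefSeq gene begins upstream of that, at 101253902, under an H3K27Ac peak (chr15:101251605-101257465) that held no Rpb2 peak. The upstream Rpb2 peak lies before both starts. The promoter peak (chr15:101266760-101267021) counted 14 and 25 reads in the WT pools, against 121 and 85 in the KO pools, or 10.9 and 16.5 CPM against 22.003 and 33.2 CPM (log2FC 0.998, SE 0.60, adjusted p = 0.520). The peak centred at −20208 bp had 114 and 65.8 CPM in WT and 54.6 and 41.0 CPM in KO (log2FC −0.90, SE 0.36, adjusted p = 0.343), with −0.47 (adjusted p = 0.622) without the library labelled WT female and −1.25 (adjusted p = 0.0389) without the WT male. At both peaks, all WT pools lay on one side of the KO pools. The sum was 123 and 79.7 CPM in WT and 78.0 and 76.6 CPM in KO (log2FC −0.38, SE 0.31, adjusted p = 0.693), and −0.07 without the library labelled WT female. The promoter took 8.70% and 20.0% of the gene's Rpb2 reads in WT and 28.7% and 44.7% in KO. The promoter peak came from the KO list alone and the upstream peak from both lists. H3K27Ac over its 7 peaks was 154 and 175 CPM in WT and 188 and 195 CPM in KO (log2FC 0.22, SE 0.25, adjusted p = 0.972).

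*Ier2* and *Ier5*, small nuclear proteins named for their immediate-early response, had Rpb2 sums that differed between genotypes by less than their SE. Summed *Ier5* was 418 and 376 CPM in WT and 424 and 445 CPM in KO (log2FC 0.13, SE 0.15, adjusted p = 0.790), and its promoter peak gave −0.01 (SE 0.17), its 4 libraries lying between 328 and 346 CPM. Summed *Ier2* was 513 and 438 CPM in WT and 387 and 558 CPM in KO (log2FC −0.01, SE 0.16, adjusted p = 0.993), so the KO pools lay on either side of the WT pools. They did so too at its promoter peak, with 243 and 223 CPM in WT and 168 and 254 CPM in KO (log2FC −0.14, SE 0.23, adjusted p = 0.836). A peak assigned to *Ier2* but centred 23567 bp downstream, in an exon of *Cacna1a* (chr8:84639162-84639409), had the largest negative difference of the member Rpb2 peaks. It held 43.5 and 51.4 CPM in WT and 13.3 and 13.7 CPM in KO (log2FC −1.82, SE 0.49, adjusted p = 0.200). DESeq2 called this peak (adjusted p = 0.00399, with 0.00399 to 0.367 over the alternatives that kept all pools), as did edgeR without the library labelled WT female (adjusted p = 0.0269). The H3K27Ac peak around it had 13.6 and 20.6 CPM in WT and 28.3 and 20.3 CPM in KO (log2FC 0.50, SE 0.38), with the WT male above the KO male. For H3K27Ac, the sums gave −0.01 (SE 0.25) for *Ier2* and 0.31 (SE 0.27) for *Ier5*. The *Ier5* sum gave 0.00070 without the library labelled WT female and 0.71 (adjusted p = 0.00055) without the WT male.

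*Btg2* had the most Rpb2 peaks of the members, and 97.5% of all genes had fewer. The 13 peaks ran from −14796 bp to 18085 bp around the TSS. The sum was 1006 and 1075 CPM in WT and 1059 and 1065 CPM in KO (log2FC 0.03, SE 0.10, adjusted p = 0.953). The KO pools lay within the WT range. Of its downstream peaks, the log2FC was 0.64 (SE 0.30, adjusted p = 0.422) at 18085 bp and −0.86 (SE 0.41, adjusted p = 0.426) at 13847 bp. At both, WT and KO pools were separate. H3K27Ac over 5 peaks was 330 and 487 CPM in WT and 439 and 445 CPM in KO (log2FC 0.11, SE 0.31), with −0.14 without the library labelled WT female and 0.42 (adjusted p = 6.03e-05) without the WT male.

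*Dusp1*, a phosphatase that inactivates MAP kinases and so ends the signal, showed how far the H3K27Ac values depend on a single WT library. Its H3K27Ac sum was 121 CPM in the library labelled WT female, 245 CPM in the WT male, 239.9 CPM in the KO female and 250.2 CPM in the KO male. The library labelled WT female thus stood apart from the other 3, which overlapped across genotypes. The log2 difference was 0.42 (SE 0.31, adjusted p = 0.945) with all pools, 0.01 without the library labelled WT female and 1.02 (adjusted p = 8.18e-13) without the WT male. The peak centred at 5403 bp past the TSS gave 31.9 and 41.1 CPM in WT and 53.4 and 59.3 CPM in KO (log2FC 0.62, SE 0.30, adjusted p = 0.811), with 0.45 without the library labelled WT female and 0.82 (adjusted p = 0.0166) without the WT male. Rpb2 over *Dusp1* was 248 and 214 CPM in WT and 242 and 285 CPM in KO (log2FC 0.19, SE 0.19, adjusted p = 0.755).

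Promoter sequences of *Nr4a1*, *Dusp1* and *Btg2* are given because they hold a full CRE or 4 CRE cores. *Nr4a1* has 4 CRE cores, at −233, −213, −69 and −40, and an EGR element at −60, all on the minus strand of the window. *Dusp1* has a full CRE at −143 and a CRE core at −191, and *Btg2* a full CRE at −166. A full CRE is in 1.79% of all promoter windows. The AP-1 site, GCGTGGGCG and TATAAA, in 7.81%, 0.612% and 13.6% of them, were in no member window. *Dusp1* and *Btg2*, with the full CRE, had Rpb2 promoter log2 fold changes of −0.11 (SE 0.35) and −0.15 (SE 0.18). The *Dusp1* promoter peak came from the WT list alone, with 137 and 118.5 CPM in WT and 72.4 and 166 CPM in KO. Promoters with CRE cores but no full CRE gave 0.998 at *Nr4a1*, 0.63 at *Klf2* and 1.22 at *Egr2*. Whether the motifs relate to these values was not tested. The *Klf6* and *Ier5* windows held none of the motifs. Promoter windows were found for 7 of the 10 members, and those of *Egr1*, *Egr3* and *Ier2* were not among them.
*Nr4a1* promoter, chr15:101266596-101266845, plus strand: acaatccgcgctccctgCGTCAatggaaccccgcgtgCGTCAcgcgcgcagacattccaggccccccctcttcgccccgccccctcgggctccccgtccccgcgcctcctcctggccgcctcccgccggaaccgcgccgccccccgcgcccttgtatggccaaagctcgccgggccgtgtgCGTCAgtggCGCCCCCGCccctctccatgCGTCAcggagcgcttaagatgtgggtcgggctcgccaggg
*Dusp1* promoter, chr17:26508473-26508722, minus strand: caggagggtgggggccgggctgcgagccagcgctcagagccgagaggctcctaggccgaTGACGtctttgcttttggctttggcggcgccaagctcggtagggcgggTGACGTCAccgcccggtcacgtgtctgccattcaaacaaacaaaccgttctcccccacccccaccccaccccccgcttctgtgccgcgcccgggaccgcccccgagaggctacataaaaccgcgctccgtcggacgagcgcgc
*Btg2* promoter, chr1:134079156-134079405, minus strand: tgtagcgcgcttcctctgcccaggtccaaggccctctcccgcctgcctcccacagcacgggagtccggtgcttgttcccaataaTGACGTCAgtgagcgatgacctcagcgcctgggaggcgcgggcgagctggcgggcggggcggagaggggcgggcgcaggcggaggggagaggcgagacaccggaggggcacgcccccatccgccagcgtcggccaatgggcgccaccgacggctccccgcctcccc

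**Figure D3:**
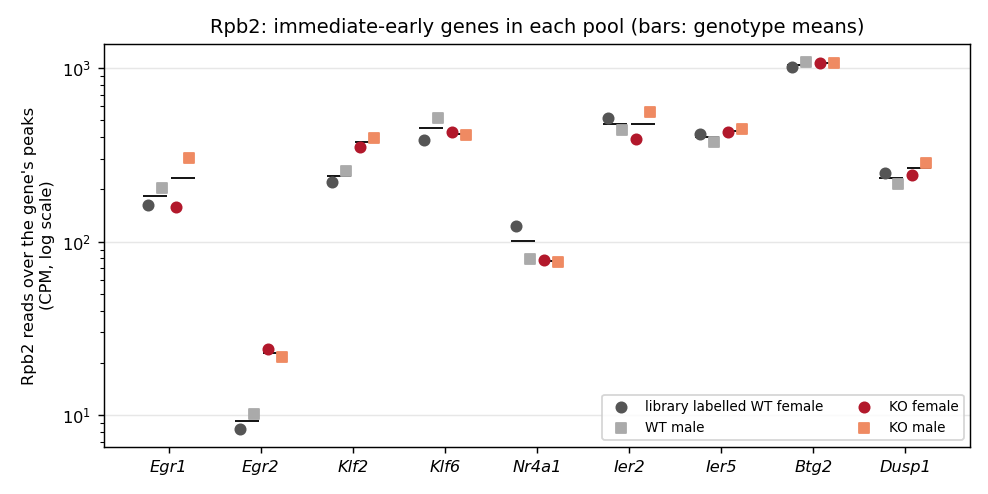
Rpb2 reads over all peaks of each immediate-early gene in CPM (log axis), 1 point per library and black bars for the genotype means (n = 2 pools). Levels are to be compared within a gene; at *Klf2* and *Egr2* both red KO points lie above both grey WT points, while at *Btg2* the 4 points lie between 1006 and 1075 CPM.

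**Figure D4:**
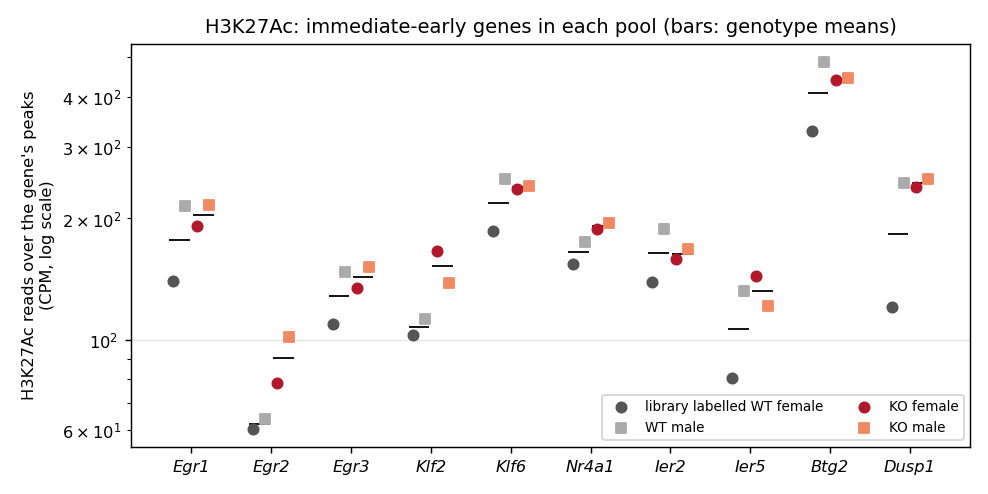
H3K27Ac reads over all peaks of each immediate-early gene in CPM (log axis), 1 point per library and black bars for the genotype means (n = 2 pools). The library labelled WT female (dark grey circle) is the lowest point at each of the 10 genes, for example 121 CPM at *Dusp1* against 239.9 to 250.2 CPM in the other 3 libraries.

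At the promoters not yet given, H3K27Ac passed the test at no member when all pools were used. The *Dusp1* promoter peak had 55.7 and 97.3 CPM in WT and 118 and 105 CPM in KO (log2FC 0.54, SE 0.29, adjusted p = 0.811), and the *Btg2* promoter peak 105 and 118 CPM against 137 and 129 CPM (log2FC 0.25, SE 0.30). At both, each KO pool was above each WT pool. The *Dusp1* value was 0.19 without the library labelled WT female and 1.001 (adjusted p = 1.37e-05) without the WT male. The *Ier2* promoter peak had 104 and 143 CPM in WT and 118 and 134 CPM in KO (log2FC 0.03, SE 0.30), and the weak one of *Nr4a1* 10.5 and 6.39 CPM against 6.99 and 15.5 CPM (log2FC 0.43, SE 0.58). The peaks over the TSS of *Ier5* and *Klf6* gave 0.31 (SE 0.30) and 0.02 (SE 0.30), and the sum of *Egr1* 0.20 (SE 0.27). Without the library labelled WT female, the *Ier5* peak gave 0.044 and the *Egr1* sum −0.075, and without the WT male 0.65 (adjusted p = 0.00329) and 0.54 (adjusted p = 0.000677). At these 5 genes, WT and KO pools overlapped.

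Most Rpb2 peaks of the members lay at an H3K27Ac peak. Of the 39 Rpb2 peaks, 35 overlapped an H3K27Ac peak, against 76.6% of all Rpb2 peaks. By position, 10 of the 39 lay within 1000 bp of a TSS, 9 elsewhere in the gene or at its end, 2 inside another gene and 18 in intergenic DNA. Of the 59 H3K27Ac peaks, 18 overlapped an Rpb2 peak, against 23.4% of all H3K27Ac peaks.

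The differences at the members varied with the peak list that a peak came from, as they did over all peaks. The authors called peaks in each genotype and then merged the lists. Both KO libraries of Rpb2 had more total reads (44332626 and 16528108) than the WT libraries (11662185 and 13653287). The part of depth in these lists was not tested. Of the Rpb2 peaks of the members, 20 came from both lists, 15 from the KO list alone and 4 from the WT list alone, with median log2 fold changes of 0.01, 0.47 and −0.50. Over all Rpb2 peaks, these medians were −0.17, 0.51 and −0.89. Both KO pools lay above both WT pools at 7 of the 15 member peaks of the KO list alone, against 41.8% of all such peaks, and at 3 of the 20 from both lists, against 10.2%. The *Klf2* promoter was 1 of those 3, with its upstream peak and the *Btg2* peak at 18085 bp. The promoter peaks of *Egr1*, *Egr2* and *Nr4a1* were from the KO list alone, and that of *Dusp1* was from the WT list alone. In the fit on peaks of both lists alone, the *Klf2* promoter gave a log2 fold change of 0.80 (adjusted p = 0.179), against 0.63 over all peaks. This rise was not particular to *Klf2*. In the same fit, the promoters of *Ier5*, *Klf6*, *Btg2* and *Ier2* moved from −0.0060, −0.097, −0.15 and −0.14 to 0.16, 0.072, 0.014 and 0.023.

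**Figure D5:**
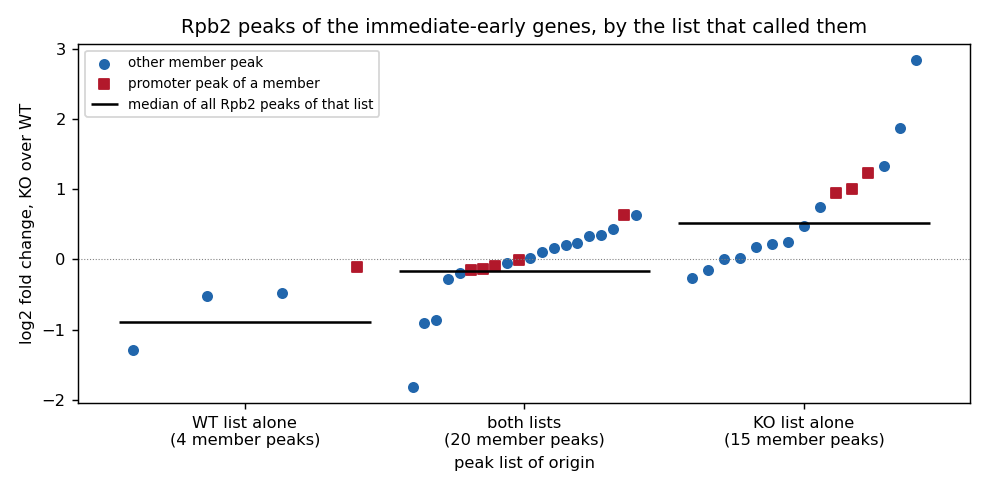
Log2 fold change of KO over WT for each of the 39 Rpb2 peaks of the immediate-early genes, by the peak list that called them. Squares are promoter peaks, circles other peaks, and bars the median of all Rpb2 peaks of that list, at −0.89, −0.17 and 0.51; member peaks of the KO list alone sit mostly above 0 and those of the WT list alone below it.

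Other genes of the immediate-early response were examined with the lists used here. Among 10 AP-1 and related genes, 0 were called for either mark, and 3 for Rpb2 and 2 for H3K27Ac had an unadjusted p under 0.05, against 10.8% and 6.48% of all genes. *Jund*, an AP-1 subunit, had 496 and 646 CPM in WT and 353 and 415 CPM in KO (log2FC −0.58, SE 0.15, adjusted p = 0.166). *Junb*, a related subunit, had 715 and 770 CPM in WT and 861 and 1020 CPM in KO (log2FC 0.34, SE 0.11, adjusted p = 0.262), so these subunits lay on opposite sides of 0, *Junb* having the third lowest p of the list. *Fosl1* had a single peak with 0 reads in both WT pools and 33 and 17 in KO. For H3K27Ac, *Fosb* had 49.1 and 46.6 CPM in WT and 76.1 and 91.1 CPM in KO (log2FC 0.81, SE 0.24, adjusted p = 0.344), and *Fos* 185 and 238 CPM in WT and 308 and 335 CPM in KO (log2FC 0.60, SE 0.28, adjusted p = 0.738). The median log2 fold change of the list was 0.18 for Rpb2 and 0.20 for H3K27Ac, beside 0.02 and −0.11 over all genes. The −0.11 became −0.0089 over genes with at least 10 reads in every sample.

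Relatives of the members and their regulators likewise held no call. Of 16 other members of the same families with Rpb2 peaks, 0 passed an adjusted p of 0.05, and the KO pools were both below the WT pools at 6 and both above at 1, against 19.7% and 22.4% of all genes. *Klf13* had 397 and 482 CPM in WT and 324 and 336 CPM in KO (log2FC −0.41, SE 0.15, adjusted p = 0.325), and *Klf9* 54.2 and 35.7 CPM against 24.4 and 8.87 CPM (log2FC −1.39, SE 0.55, adjusted p = 0.351). Their values were on the other side of 0 from *Klf2*. For H3K27Ac, the lowest p values of this list were those of *Ier5l* (log2FC −0.77, SE 0.29) and *Klf4* (log2FC 0.32, SE 0.26), with 0 of 17 called. Of the upstream regulators, 0 of 14 were called for Rpb2 and 0 of 16 for H3K27Ac. *Mapk14*, the p38 kinase, gave −0.45 (SE 0.22) and *Crem*, a CREB relative, −0.68 (SE 0.34) for Rpb2; for H3K27Ac, *Rps6ka3* gave −0.30 (SE 0.24) and *Crem* 0.30 (SE 0.24). *Zfp36l1* and *Zfp36*, which bind AU-rich mRNAs and hasten their decay, gave 0.27 (SE 0.12) and 0.24 (SE 0.13) for Rpb2 and 0.25 (SE 0.27) and 0.25 (SE 0.34) for H3K27Ac, with 0 of 4 and 0 of 5 of their list called.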

How the data were processed

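Rpb2 and H3K27Ac were measured in 8 libraries of microglia pools; the 4 input samples were not used here. The authors mapped 51-cycle single-end reads to mm10 with Bowtie2, kept unique reads, called peaks with HOMER, kept those reproducible between pools and merged the WT and KO lists (versions are not given in the sources used here). They deposited raw read counts per peak and library, with no normalization. Peak ends and TSS positions were checked against RefSeq's GRCm38.p6.

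Peaks, and the counts summed over each gene's peaks, were tested in edgeR 4.0.16 under R 4.3.3 (glmQLFit and glmQLFTest with legacy defaults, TMM factors, genotype alone, Benjamini-Hochberg adjustment over all rows). Rows averaging under 4 reads in both genotypes were dropped, none of them a member peak. CPM are TMM-scaled reads per 1000000 in tested rows, separately for peaks and sums, and SE is the log2 fold change over the root of the F statistic. Levels per length use total reads. The test was also run on simulated counts. Their dispersion was set below the common dispersion fitted for Rpb2 peaks (0.133), H3K27Ac peaks (1.28) and H3K27Ac sums (0.666). That run therefore does not measure error or power in those fits.

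The members and lists were chosen with earlier results of these data known. By the rule for named genes, the text gives each member's sum and promoter peak (*Egr3* had none), its other peaks with an unadjusted p under 0.05, and the 2 genes of lowest p per immediate-early list and mark. *Junb*, the H3K27Ac peaks overlapping the TSS, the *Egr3* peak, the *Klf2* peak at −23103 bp, the H3K27Ac peak around the *Ier2* peak in *Cacna1a* and the distal peaks of *Egr1* and *Btg2* were chosen after their values were seen.

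The comparisons rest on 2 pools per genotype, so an exact permutation test cannot go below 0.333, and p-values measure only the spread between these pools. Reads carry no molecular identifiers. The labels share sex across genotypes, but the pools are different mice. Alternatives were total reads in peaks, DESeq2 1.42.0, no filter, at least 10 reads in every sample, sex as a replicate block, each pool left out, loess offsets, and peaks within 1000 bp of a TSS; the peak nearest the TSS was the promoter peak wherever a member had one. Chosen later, with the data in view, were edgeR's newer quasi-likelihood method, library totals, TMM on peaks of both lists, and peaks of both lists only. Of the tables' per-sample columns, 0 went unused. Python 3.11.15, pandas 2.3.3 and matplotlib 3.10.9 were used.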

Additional observations from a re-analysis of the deposited data

Results flagged for a closer look

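The log2 ratio of KO over WT had opposite signs in the pools labelled female and male at several sums, with 1 pool per sex and genotype, so the difference between the sexes was not tested. For Rpb2, the ratios in female and male pools were −0.037 and 0.58 at *Egr1*, −0.41 and 0.35 at *Ier2*, 0.15 and −0.32 at *Klf6*, 0.074 and −0.014 at *Btg2*, and −0.033 and 0.41 at *Dusp1*. The Rpb2 library labelled WT female held Y-linked reads, so these are ratios by label. For H3K27Ac, they were 0.19 and −0.17 at *Ier2*, 0.83 and −0.13 at *Ier5*, 0.35 and −0.054 at *Klf6*, and 0.41 and −0.13 at *Btg2*. The female ratios of H3K27Ac rest on the weakly enriched library labelled WT female.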

How the results depend on the processing

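Of 554 recomputed member values, 470 kept their direction and side of the threshold, 18 passed it only in the alternative, and 66 changed sign, over 19 of 43 results. In the library labelled WT female, the Rpb2 promoter peaks of *Egr2*, *Nr4a1* and *Egr1* held 11, 14 and 28 reads. The counts of calls depended on the method, and the cause was not tested.

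Of all Rpb2 peaks, 2 were called, against 1022 with DESeq2, 30 with at least 10 reads in every sample, 272 with the newer quasi-likelihood method, 10 with loess offsets, 0 within 1000 bp of a TSS, 8 among peaks of both lists, and 0 to 2210 without each pool (2210 without the library labelled WT female, 1963 without the WT male). DESeq2 called 1 member peak, and 0 to 4 were called without each pool. Of all Rpb2 sums, 0 were called, against 28 with DESeq2, 6 with at least 10 reads, 40 with the newer method, 28 with library totals and 0 to 264 without each pool, with 0 to 1 members. Of all H3K27Ac peaks, 13 were called, against 240 with DESeq2, 1 with at least 10 reads, 0 each with the newer method, library totals, peaks within 1000 bp and peaks of both lists, and 2 to 8157 without each pool, with 0 to 8 member peaks. Of all H3K27Ac sums, 0 were called, against 213 with DESeq2, 8 with library totals and 88 to 3807 without each pool, with 0 to 7 members.

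With sex as the replicate block, 4 Rpb2 peaks, 43 Rpb2 sums, 12 H3K27Ac peaks and 140 H3K27Ac sums were called. The deviations of same-sex pools correlated at −0.00762, −0.00545, −0.000271 and −0.0264 in these 4 fits, so label sex carried almost no shared deviation over all features. For H3K27Ac, both female pools held 0 Y-linked reads, and the male pools held 281 and 656. The block changed no member's call. It turned the H3K27Ac sum of *Ier2* to 0.0091.

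Signs changed at these log2 fold changes. The Rpb2 promoter peak of *Ier2* gave 0.22 with library totals, 0.025 with TMM on peaks of both lists and 0.023 in peaks of both lists only. The Rpb2 promoter peak of *Ier5* gave 0.054 with total reads in peaks, 0.13 with at least 10 reads, 0.32 with library totals, 0.067 with loess offsets, 0.12 within 1000 bp, 0.16 with TMM on peaks of both lists and 0.16 in peaks of both lists only. The Rpb2 promoter peak of *Klf6* gave 0.036 with at least 10 reads, 0.23 with library totals, 0.030 within 1000 bp, 0.072 with TMM on peaks of both lists and 0.072 in peaks of both lists only. The Rpb2 promoter peak of *Btg2* gave 0.17 with library totals, 0.014 with TMM on peaks of both lists and 0.014 in peaks of both lists only. The Rpb2 promoter peak of *Dusp1* gave 0.025 with at least 10 reads, 0.28 with library totals, 0.014 with loess offsets, 0.015 within 1000 bp and 0.059 with TMM on peaks of both lists. The Rpb2 sum of *Ier2* gave 0.011 with at least 10 reads and 0.27 with library totals. The Rpb2 sum of *Klf6* gave 0.15 with library totals. The H3K27Ac promoter peak of *Ier2* gave −0.0085 with total reads in peaks, −0.027 with DESeq2, −0.025 with at least 10 reads, −0.011 with the newer method, −0.13 with loess offsets, −0.036 within 1000 bp, −0.014 with TMM on peaks of both lists and −0.014 in peaks of both lists only. The H3K27Ac peak over the TSS of *Klf6* gave −0.017 with total reads in peaks, −0.035 with DESeq2, −0.033 with at least 10 reads, −0.0050 with the newer method, −0.16 with loess offsets, −0.024 with TMM on peaks of both lists and −0.024 in peaks of both lists only. The H3K27Ac sum of *Ier2* gave 0.60 with library totals. Library totals moved the median of all features from 0.04 to 0.37 (Rpb2 peaks), 0.02 to 0.27 (Rpb2 sums), −0.21 to 0.53 (H3K27Ac peaks) and −0.11 to 0.63 (H3K27Ac sums). The newer method, library totals and both settings on peaks of both lists were chosen after seeing the data.

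Without each pool in turn, Rpb2 promoter peaks ranged from −0.032 to 1.54 at *Egr1*, −0.47 to 0.13 at *Ier2*, −0.045 to 0.031 at *Ier5*, −0.26 to 0.077 at *Klf6*, −0.34 to 0.049 at *Btg2* and −0.82 to 0.38 at *Dusp1*. Rpb2 sums ranged from −0.21 to 0.73 at *Egr1*, −0.30 to 0.23 at *Ier2*, −0.32 to 0.12 at *Klf6* and −0.040 to 0.076 at *Btg2*. H3K27Ac peaks ranged from −0.070 to 0.54 at *Egr1*, −0.18 to 0.28 at *Ier2*, −0.15 to 0.21 at *Klf6* and −0.25 to 0.89 at *Nr4a1*. H3K27Ac sums ranged from −0.075 to 0.54 at *Egr1*, −0.041 to 0.38 at *Egr3*, −0.21 to 0.23 at *Ier2*, −0.064 to 0.36 at *Klf6* and −0.14 to 0.42 at *Btg2*.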
